A study of Mus musculus with 6 samples.

Results

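The sodium and pacemaker channel genes described here were *Scn4a*, *Scn4b*, *Scn7a*, *Hcn2* and *Hcn4*. They were the 5 of 54532 rows of the gene count table whose Ensembl identifiers carried these symbols in GENCODE M21. Of these 5 genes, 4 passed the filter on low expression, which kept 13323 genes in all, and *Scn4b* did not. The nuclear RNA came from cardiomyocytes (CMs) of wild-type ICR mice injected subcutaneously at P6 with AAV9, a virus that infects the heart, at 1e+11 viral genomes per mouse, and collected at P9. All constructs were driven by the cardiac troponin T (cTnT) promoter, so that expression was directed to CMs. The control virus carried cTnT-GFP. The second carried cTnT-YAP5SA, a form of the Hippo pathway effector YAP in which the LATS phosphorylation serines are replaced by alanine. The third carried cTnT-YAP6SA, which has in addition the serine 94 to alanine change that blocks binding to the TEAD transcription factors. Each virus had 2 libraries, 1 in each of 2 labelled batches, and CM nuclei were enriched by pulldown of PCM-1, a protein of the CM nuclear surface. The labels give 2 hearts per virus, so that each library is taken here to be 1 heart, male and female mice were used, and the GFP-injected mice served as controls for both YAP viruses.

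Voltage-gated sodium channels open on depolarisation and carry the fast inward current of the action potential. A pore-forming alpha subunit is joined by beta subunits that change its gating and its place in the membrane. *Scn4a* encodes Nav1.4, the alpha subunit of skeletal muscle. *Scn4b* encodes the beta-4 subunit, and *Scn7a* encodes Nax, an atypical alpha subunit known as a sodium-level sensor in glia and peripheral nerve. HCN channels open on hyperpolarisation, bind cyclic AMP and carry the pacemaker current. *Hcn4* is the main HCN gene of the sinus node, and *Hcn2* is the main one of ventricular muscle.

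The promoter of *Hcn2*, the only one of the 5 genes to pass the test below, is shown together with that of *Hcn4*, the other HCN gene that could be tested, and a 30-base stretch before *Scn7a* that holds the only match to the TEAD motif among the 5 promoters. The sequences are the RefSeq bases upstream of the annotated start in GRCm38.p6, given 5′ to 3′ in the direction of transcription. For the HCN genes the capitals mark GC boxes (GGGCGG on either strand), and for *Scn7a* the TEAD motif (CATTCC on either strand). The *Hcn2* window lies at chr10:79716384-79716633 on the plus strand, the *Hcn4* window at chr9:58822699-58822948 on the plus strand, and the *Scn7a* stretch at chr2:66785081-66785110 on the minus strand.
Hcn2: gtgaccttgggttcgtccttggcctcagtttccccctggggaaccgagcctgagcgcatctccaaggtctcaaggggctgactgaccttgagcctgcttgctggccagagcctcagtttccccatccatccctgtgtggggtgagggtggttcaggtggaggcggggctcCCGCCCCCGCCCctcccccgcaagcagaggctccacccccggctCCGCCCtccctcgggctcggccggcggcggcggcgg
Hcn4: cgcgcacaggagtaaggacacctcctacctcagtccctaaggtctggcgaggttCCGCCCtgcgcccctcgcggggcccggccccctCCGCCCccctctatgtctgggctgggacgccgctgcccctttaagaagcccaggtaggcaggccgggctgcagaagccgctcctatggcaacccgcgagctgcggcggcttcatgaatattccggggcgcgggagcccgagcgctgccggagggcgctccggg
Scn7a: ccagggagcaggGGAATGcaaagccactgc
The *Hcn2* window was 70.4% GC with 16 CpG and 3 GC boxes, and the *Hcn4* window was 71.2% GC with 25 CpG and 2 GC boxes. A GC box was present in 32.9% of 27025 RefSeq promoters of the same length. The TEAD motif was not among the letters of the *Hcn2*, *Hcn4*, *Scn4a* or *Scn4b* windows and lay 188 to 183 bases upstream of the *Scn7a* start. It was found in 12.6% of all promoters. Of the 250 bases, 186 of the *Scn4a* window and 229 of the *Scn4b* window lay in exons of GENCODE M21. For these genes the absence of a match therefore says little about the bases before the M21 start. The *Hcn4* window ended at base 58822948, short of the M21 start at 58823412. It therefore does not describe the bases directly before that start. A match is a description of the letters in this window and not a binding site.

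In annotation, *Hcn2* (ENSMUSG00000020331) is on chr10:79716634-79736108 (+), *Hcn4* (ENSMUSG00000032338) on chr9:58823412-58863175 (+) and *Scn4b* (ENSMUSG00000046480) on chr9:45138395-45154152 (+) of GRCm38. *Scn4a* (ENSMUSG00000001027) is on chr11:106318592-106353288 (-) and *Scn7a* (ENSMUSG00000034810) on chr2:66673425-66784914 (-). All 5 are protein-coding, and no exon of any of them overlapped an exon of another gene.

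The libraries held between 14552847 and 19615627 counts assigned to genes, at which 3 counts correspond to 0.153 to 0.206 CPM (depth-scaled counts, with TMM library factors). The labelled cell type was present in all libraries: all 8 CM markers were kept and none was at 0. The sum of these 8 markers was 56032 and 75177 CPM for GFP, 51533 and 68032 CPM for YAP6SA, and 44864 and 32070 CPM for YAP5SA CMs. *Yap1* itself was between 102 and 139 CPM in the 6 libraries and did not pass the test in any comparison, so that the mouse gene's row did not show which virus was injected. The known YAP-TEAD target *Ccn2* was at 504 and 955 CPM in the 2 YAP5SA libraries and between 42.5 and 132 CPM in the other 4. In YAP6SA against GFP its log2 fold change was 0.67 (edgeR adjusted p = 0.874). *Ccn1* and *Ankrd1*, also known as YAP targets, were higher in YAP5SA too. In YAP6SA against GFP they had log2 fold changes of -0.54 and 0.87 (edgeR adjusted p = 0.889 and 0.328). *Ankrd1* was at 723 and 871 CPM in GFP and at 1321 and 1591 CPM in YAP6SA. At an adjusted p under 0.05 (edgeR quasi-likelihood test, Benjamini-Hochberg), 0.045% of genes were called in YAP6SA against GFP, 22% in YAP5SA against GFP and 14.7% in YAP5SA against YAP6SA.

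*Hcn2* RNA was lower in YAP5SA-overexpressing (YAP5SA OE) CMs than in GFP controls, and its level in YAP6SA OE CMs overlapped with that of the controls. *Hcn2* was at 147 and 174 CPM with GFP, at 123 and 164 CPM with YAP6SA, and at 87.2 and 57.5 CPM with YAP5SA. Both YAP5SA libraries were therefore below all 4 others, whereas the GFP and YAP6SA libraries overlapped. The group means were 160 ± 18.9 CPM in GFP, 143 ± 28.8 CPM in YAP6SA and 72.4 ± 21.0 CPM in YAP5SA (SD, n = 2 each).

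The fitted *Hcn2* level in YAP5SA OE CMs was 45.2% of that in GFP, a log2 fold change of -1.15 ± 0.23 (SE; 95% interval -1.65 to -0.64; edgeR adjusted p = 0.00721). For comparison, 9.18% of all genes tested were called lower in this comparison. Against YAP6SA, the log2 fold change of *Hcn2* was -0.98 ± 0.23 (95% interval -1.49 to -0.48; edgeR adjusted p = 0.0184), where 5.68% of genes were called lower. The difference between YAP6SA and GFP was -0.16 ± 0.22 on the log2 scale (95% interval -0.65 to 0.33; edgeR adjusted p = 0.947), which leaves room for a modest change in either direction. A lower log2 fold change than that of *Hcn2* in YAP5SA against GFP was found for 375 of the 13323 genes, or 2.81%.

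The size of the *Hcn2* difference was not equal in both batches, although the direction was. Within batch 1, the log2 ratio of YAP5SA to GFP was -0.75, and within batch 2 it was -1.59. Against YAP6SA, the within-batch log2 ratios were -0.50 and -1.51. Without GFP replicate 2 the adjusted p for YAP5SA against GFP was 0.0567 by edgeR, at a log2 fold change of -0.99. Leaving out YAP5SA replicate 1 gave a log2 fold change of -1.63 and leaving out YAP5SA replicate 2 gave -0.70, both past the test. For YAP5SA against YAP6SA the call was lost without YAP6SA replicate 2 (log2 fold change -0.69, edgeR adjusted p = 0.223) and without YAP5SA replicate 2 (-0.53, edgeR adjusted p = 0.0535), and the value was -1.46 without YAP5SA replicate 1.

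Some CM markers were also called lower in YAP5SA OE CMs. All 8 CM markers had a negative log2 fold change against GFP, with a median of -0.79, and 2 of them passed the test, where 9.18% of all genes were called lower. Of the 2 with the highest mean, *Myh6*, the alpha myosin heavy chain, had a log2 fold change of -1.04 (edgeR adjusted p = 0.0625) and *Tnnt2*, cardiac troponin T, of -0.35 (edgeR adjusted p = 0.464). The *Hcn2* level and the CM marker sum given above were both lowest in the YAP5SA libraries. In these bulk libraries, fewer nuclei of a type and less RNA per nucleus cannot be told apart. The part of the CM marker level in the *Hcn2* result was not tested. Among ventricular markers, 1 of 5 was called lower and the 2 most abundant, the myosin light chains *Myl2* (-0.13) and *Myl3* (0.12), did not pass the test in YAP5SA against GFP. Among atrial markers, 5 of 11 were called higher, where 12.8% of all genes were, with the atrial myosin light chains *Myl4* (0.74 ± 0.15; edgeR adjusted p = 0.00905) and *Myl7* (0.72 ± 0.18; edgeR adjusted p = 0.0189) the most abundant.

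**Figure D1:**
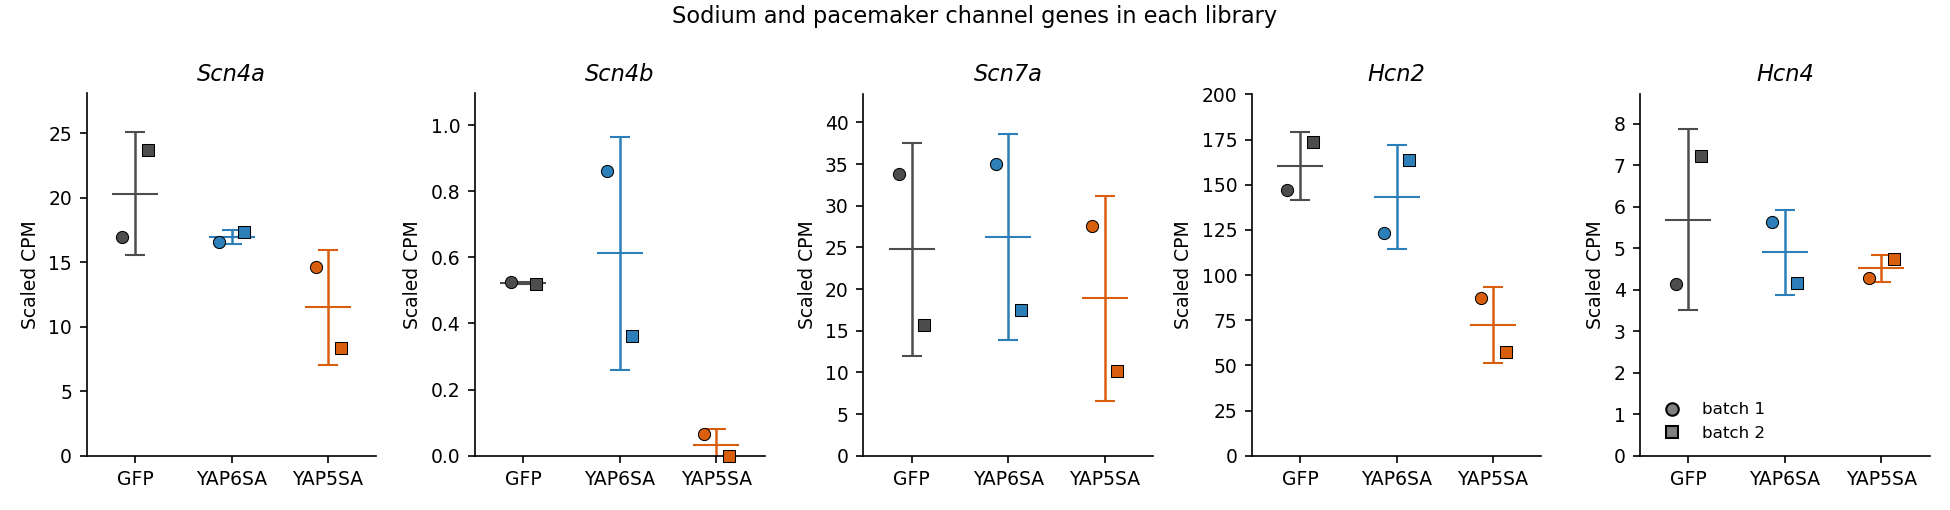
Scaled CPM (vertical axes, linear and from 0, 1 panel per gene) of the 5 channel genes in each GFP, YAP6SA and YAP5SA library. Points are single libraries (circles batch 1, squares batch 2), wide dashes are group means and bars are SD (n = 2). *Hcn2* and *Scn4a* were lower in both YAP5SA libraries than in all others, *Scn4b* was at or near 0 in YAP5SA, and *Scn7a* was split by batch in every group.

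*Hcn4*, the sinus node HCN gene, was low in all 3 groups and no difference passed the test. Its level was 4.14 and 7.22 CPM in GFP, 5.63 and 4.17 CPM in YAP6SA, and 4.29 and 4.75 CPM in YAP5SA. The libraries of all 3 groups overlapped, and the GFP libraries spanned the values of the other 4. The log2 fold change in YAP5SA against GFP was -0.31 ± 0.40 (95% interval -1.20 to 0.59; edgeR adjusted p = 0.617). In YAP6SA against GFP it was -0.17 (edgeR adjusted p = 0.963), and in YAP5SA against YAP6SA it was -0.13 (edgeR adjusted p = 0.856). At 65 to 111 counts per library, a change of the size seen for *Hcn2* lay inside the interval for *Hcn4*.

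Per length of exon (RPKM), *Hcn2* made up nearly all of the HCN channel RNA. In GFP, the level was 50.2 RPKM for *Hcn2*, 0.929 RPKM for *Hcn4* and 0.213 RPKM for *Hcn3*. The share of *Hcn2* in the RPKM sum of the 4 HCN genes was 97.8% ± 0.680 in GFP, 97.9% ± 0.569 in YAP6SA and 96.1% ± 1.41 in YAP5SA (SD, n = 2 each). The share of *Hcn4* was 1.78% ± 0.472, 1.82% ± 0.723 and 3.30% ± 1.13 in the same order. The HCN sum was 51.4 ± 6.41 RPKM in GFP, 45.8 ± 8.95 in YAP6SA and 23.5 ± 6.49 in YAP5SA, and so followed *Hcn2*.

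The HCN partners tested were *Lrmp* and *Mrvi1*, endoplasmic reticulum proteins that bind HCN channels or their regulators. Neither passed the test in any comparison, and their log2 fold changes in YAP5SA against GFP were -0.12 and -0.30. *Kcne2* and *Pex5l*, which encode accessory subunits of HCN channels, did not pass the filter, and *Kcne2* had at most 8 counts in any library.

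*Scn4a*, the skeletal muscle alpha subunit, was lower in both YAP5SA libraries than in the other 4, but the difference did not pass the test. It was at 16.9 and 23.7 CPM in GFP, at 16.6 and 17.3 CPM in YAP6SA, and at 14.7 and 8.32 CPM in YAP5SA. The nearest libraries, YAP6SA replicate 1 and YAP5SA replicate 1, were close to each other, and YAP5SA replicate 2 was the lowest. The log2 fold change in YAP5SA against GFP was -0.84 ± 0.31 (95% interval -1.52 to -0.16; unadjusted p = 0.0209, edgeR adjusted p = 0.0760). Within the batches it was -0.21 and -1.50. The call was made without GFP replicate 1 (log2 fold change -1.25; edgeR adjusted p = 0.0382) and without YAP5SA replicate 1 (-1.40; edgeR adjusted p = 0.000655). Without GFP replicate 2 the value was -0.41, and without YAP5SA replicate 2 it was -0.30. The adjusted p also fell below the threshold with the edgeR likelihood ratio test (0.0401) and with no filter on low counts (0.0121).

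Against YAP6SA the log2 fold change of *Scn4a* was -0.57 ± 0.30 (edgeR adjusted p = 0.231), and YAP6SA against GFP gave -0.26 ± 0.30 (edgeR adjusted p = 0.929). Without YAP5SA replicate 1, YAP5SA against YAP6SA was -1.16 with an edgeR adjusted p of 0.00414, and without YAP5SA replicate 2 it was -0.061. Libraries that did not overlap were frequent in these comparisons: 29.7% of all genes tested were lower in both YAP5SA libraries than in both GFP libraries, and 28.9% were lower than in both YAP6SA libraries. Of the 5 channel genes, *Hcn2* and *Scn4a* were lower in this way in both comparisons. So was *Scn4b*, at 1 and 0 counts in YAP5SA, which is not among the genes tested that these shares cover. None of the 5 was higher, where 31.2% and 28.6% of all genes tested were. In YAP6SA against GFP, where 17% of genes were lower and 17.3% higher in both libraries, all 5 overlapped.

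Other skeletal muscle genes were examined beside *Scn4a*. Of 23 skeletal muscle markers, 9 were kept. In YAP5SA against GFP 4 were called higher and 1 lower, where 12.8% and 9.18% of all genes tested were. The 4 that rose passed the filter on the YAP5SA libraries alone, so that their number is no measure of the list. They were, named after their values were seen, the myosin heavy chain genes *Myh1*, *Myh2* and *Myh8*, and *Cacna1s*, the skeletal muscle L-type calcium channel. *Cacna1s* had a mean of 1.04 CPM in GFP and 45.1 CPM in YAP5SA, and *Myh8* of 0.0262 and 50.4 CPM. Defining markers *Myod1*, *Myf6*, *Pax7*, *Myh4* and *Tnnc2* were at 0 in all 6 libraries, and *Actn3*, *Mybpc1* and *Chrna1* had at most 3 counts in any library. *Myog*, a myogenic transcription factor, was at 0 in GFP and YAP6SA and had 71 counts over both YAP5SA libraries, a mean of 2.08 CPM that did not pass the filter. The summed level of the list was 141 and 167 CPM in GFP, 194 and 182 CPM in YAP6SA, and 234 and 307 CPM in YAP5SA. The sum of the 19 markers left without those 4 genes was 140 and 166 CPM in GFP, 193 and 180 CPM in YAP6SA, and 142 and 91.0 CPM in YAP5SA. The 2 most abundant members were *Ckm*, muscle creatine kinase (log2 fold change -0.40; edgeR adjusted p = 0.428), and *Tnnt1*, slow skeletal troponin T, which fell (-0.96 ± 0.20; edgeR adjusted p = 0.00896). The part of skeletal muscle genes in the *Scn4a* level was not tested.

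*Scn7a* was split by batch more than by virus. It was at 33.8 and 15.7 CPM in GFP, at 35.0 and 17.5 CPM in YAP6SA, and at 27.6 and 10.2 CPM in YAP5SA, with the batch 1 library given first. In every group the batch 1 library was higher, so that all groups overlapped. The fitted level was 2.26-fold higher in batch 1 than in batch 2 (edgeR adjusted p = 0.0348), a term for which 0.203% of all genes were called. For *Hcn2*, *Hcn4* and *Scn4a*, the adjusted p of the batch term was between 0.880 and 0.973 by edgeR.

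With batch in the model, no *Scn7a* difference between viruses passed the test. The log2 fold change was -0.45 ± 0.21 in YAP5SA against GFP (edgeR adjusted p = 0.150), -0.55 ± 0.21 in YAP5SA against YAP6SA (unadjusted p = 0.0243, edgeR adjusted p = 0.104) and 0.10 ± 0.21 in YAP6SA against GFP (edgeR adjusted p = 0.955). The YAP5SA library was the lowest of its batch in both batches. Without YAP5SA replicate 1, the YAP5SA against YAP6SA difference was -0.74 and passed the test (edgeR adjusted p = 0.0286).

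Fibroblast and endothelial markers were higher in batch 1, as *Scn7a* was, and macrophage markers were higher in batch 2. The sum of 10 fibroblast markers was 1453 and 921 CPM in GFP, 1922 and 1068 CPM in YAP6SA, and 1601 and 986 CPM in YAP5SA, again with batch 1 first. None of the 10 was at 0, all 10 were lower in batch 2 by the fitted value, with a median log2 difference of -0.69, and 1 of them passed the test. The 2 most abundant were *Col3a1* and *Postn*, an extracellular collagen and a matricellular protein. The sum of 10 endothelial markers was likewise higher in batch 1, at 652, 772 and 678 CPM against 509, 516 and 520 CPM in batch 2. The macrophage sum went the other way, at 69.4, 85.1 and 101 CPM in batch 1 against 97.1, 115 and 146 CPM in batch 2, with a median log2 difference of 0.40 over the 9 markers kept. Markers of Schwann cells and glia, the cells in which Nax is best known, summed to 85.1 and 99.6 CPM in GFP, 80.8 and 85.3 CPM in YAP6SA, and 71.6 and 55.1 CPM in YAP5SA. The batch 1 library had the lower sum of this list in GFP and YAP6SA and the higher sum in YAP5SA. Of its 10 genes 4 were kept, 3 of them lower in batch 2 by the fitted value, with a median log2 difference of -0.25. In YAP5SA against GFP *Erbb3*, a neuregulin receptor, fell (log2 fold change -0.996 ± 0.199; edgeR adjusted p = 0.00767). *Mbp*, a myelin protein, rose (2.48 ± 0.58; edgeR adjusted p = 0.0150), from a mean of 0.913 CPM in GFP to 5.07 CPM in YAP5SA. The GFP level of *Mbp* was below the filter of 1 log2 CPM. It was therefore kept through another group, and its rise is no measure of the list. The part of these cell types in the *Scn7a* level was not tested.

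**Figure D2:**
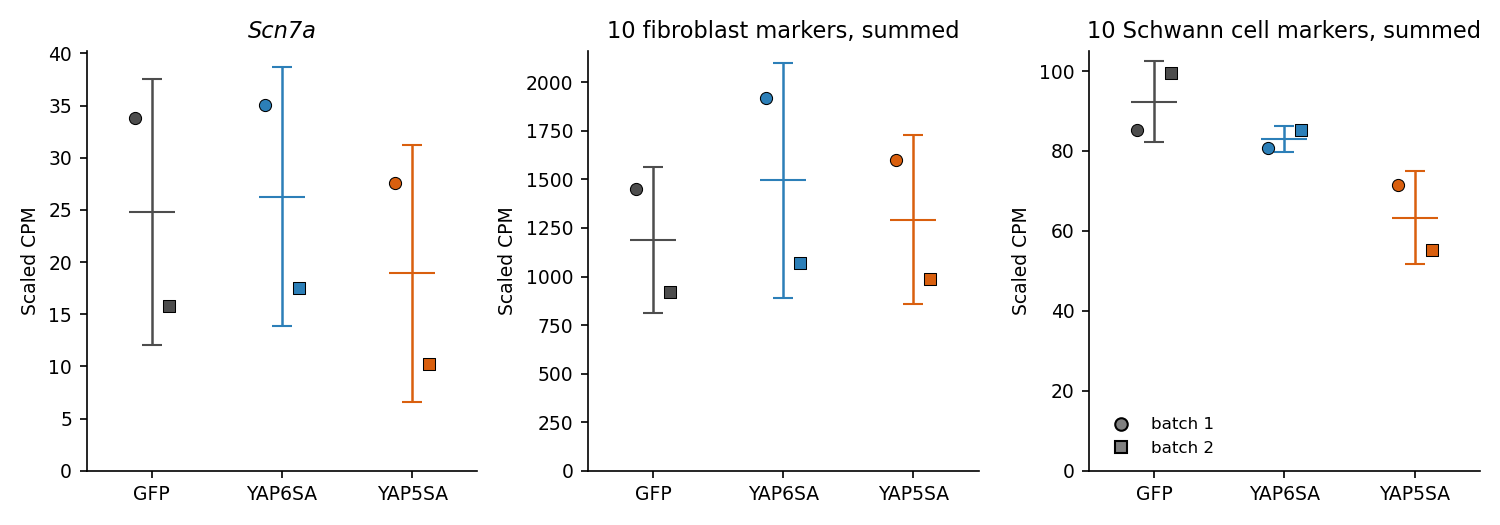
Scaled CPM (vertical axes, linear and from 0) of *Scn7a*, of 10 fibroblast markers summed and of 10 Schwann cell and glia markers summed, in each library of the 3 groups. Circles are batch 1, squares batch 2, wide dashes means and bars SD (n = 2). The batch 1 library was the higher in every group for *Scn7a* and the fibroblast sum, and in YAP5SA only for the Schwann cell sum.

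*Scn4b*, the beta-4 subunit, was counted too rarely to pass the filter and is given by its counts. There were 10 and 8 counts with the GFP virus, 17 and 6 with YAP6SA, and 1 and 0 with YAP5SA. These correspond to 0.524 and 0.521 CPM, 0.862 and 0.362 CPM, and 0.0660 and 0 CPM. A library at 0 counts allows an expected count of up to 3, and the library with 1 count allows more.

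Over both libraries, the depth-scaled ratio of YAP5SA to GFP for *Scn4b* was 0.0579 (1 against 18 counts; exact 95% counting interval 0.00139 to 0.367), and that of YAP5SA to YAP6SA was 0.0477 (1 against 23 counts; 0.00116 to 0.294). YAP6SA to GFP gave 1.21 (0.627 to 2.39). Without YAP5SA replicate 2 the log2 ratio of YAP5SA to GFP was -2.98, in place of -4.11, and that of YAP5SA to YAP6SA was -3.26, in place of -4.39. Without YAP6SA replicate 1 the log2 ratio of YAP6SA to GFP was -0.53, in place of 0.28. These intervals cover counting error and not the spread between hearts. In the fit without a filter, the adjusted p was 0.197 for YAP5SA against GFP and 0.202 for YAP5SA against YAP6SA by edgeR, so that neither difference passed the test.

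**Figure D3:**
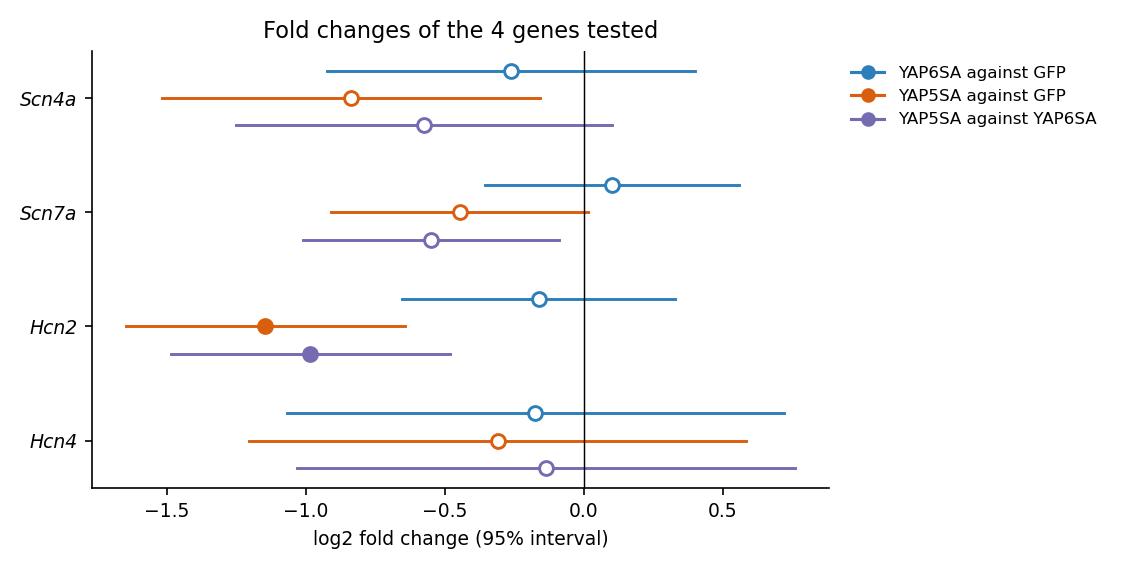
Fitted log2 fold changes (horizontal axis) with 95% intervals of the 4 channel genes that passed the filter, for the 3 comparisons. Filled points passed an adjusted p of 0.05 and open points did not. *Hcn2* in YAP5SA against GFP (-1.15) and against YAP6SA (-0.98) were filled, and all 4 intervals for YAP6SA against GFP crossed 0.

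Compared per length of exon, the 5 genes were ordered in GFP as *Hcn2* (50.2 RPKM), *Scn7a* (3.38), *Scn4a* (2.88), *Hcn4* (0.929) and *Scn4b* (0.105). *Scn7a* and *Scn4a* overlapped over the GFP libraries, at 4.60 and 2.15 RPKM against 2.40 and 3.36 RPKM, and the other neighbours in this order did not overlap. *Scn4a* and *Scn7a* were minor parts of the alpha subunit RNA. The share of *Scn4a* in the RPKM sum of 10 alpha subunit genes was 2.50% ± 0.574 in GFP, 2.15% ± 0.0369 in YAP6SA and 1.33% ± 0.525 in YAP5SA (SD, n = 2 each). The share of *Scn7a* was 2.93% ± 1.52, 3.20% ± 1.55 and 2.10% ± 1.37. Among 4 beta subunit genes, *Scn4b* held 2.79% ± 0.722 of the RPKM sum in GFP.

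The lists of alpha subunits, beta subunits, sodium channel partners, the sodium leak channel complex, HCN channels and HCN partners held 38 genes, of which 21 were kept. In YAP6SA against GFP none was called by edgeR and 1 had an unadjusted p under 0.05, and the count called was also 0 by DESeq2 and limma-voom. Of all 13323 genes tested, 514 were higher and 276 lower at that unadjusted edgeR p. In YAP5SA against GFP 2 were called higher and 1 lower, with a median log2 fold change of -0.12 over the 21 genes and of -0.0031 over all genes tested. In YAP5SA against YAP6SA 1 was called higher and 1 lower, with a median of -0.13 against -0.01. Without the 5 genes described here, 33 genes were left and 17 were kept. Of these 17, 2 were called higher in YAP5SA against GFP, with a median of 0.05, and 1 in YAP5SA against YAP6SA, with a median of -0.11, and 0 were called lower in either by edgeR (at an unadjusted p under 0.05, 2 and 3). Of all genes tested, 22% and 14.7% were called in these comparisons. At an unadjusted edgeR p under 0.05, 2261 and 1928 of the 13323 genes tested were lower.

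*Hcn2* was the gene called lower in both comparisons. *Scn10a*, the Nav1.8 alpha subunit of sensory neurons and also found in heart, was the one called higher in both. Its mean was 44.5 CPM in GFP, 44.2 CPM in YAP6SA and 74.1 CPM in YAP5SA (log2 fold change 0.79 ± 0.17 against GFP, edgeR adjusted p = 0.00997; 0.79 against YAP6SA, edgeR adjusted p = 0.0135). In each group it was higher in batch 2 than in batch 1, and the batch 2 GFP library, at 58.6 CPM, was close to the batch 1 YAP5SA library, at 61.3 CPM. *Cav3*, the caveolin of muscle membranes, had means of 67.5, 89.2 and 133 CPM (GFP, YAP6SA, YAP5SA), and rose against GFP (0.98 ± 0.18 for YAP5SA; edgeR adjusted p = 0.00598). None of the 4 genes of the leak channel complex passed the filter.

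**Figure D4:**
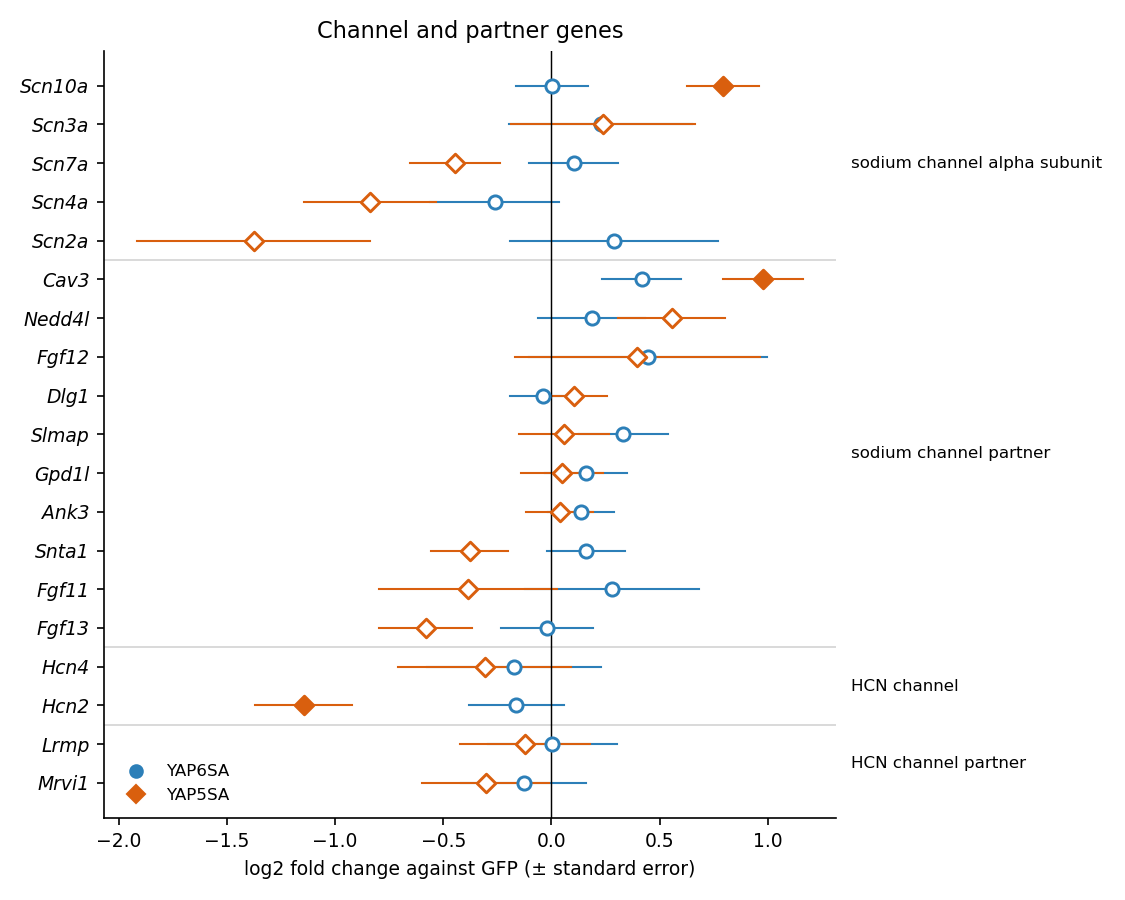
Fitted log2 fold change against GFP (horizontal axis; bars are standard errors) of 19 of the 21 channel and partner genes kept, grouped by list, in YAP6SA (circles) and YAP5SA (diamonds). Filled symbols passed an adjusted p of 0.05. In YAP5SA, *Scn10a* and *Cav3* were filled above 0 and *Hcn2* below 0, and no YAP6SA symbol was filled.

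Genes of the conduction system were set beside *Hcn2* and *Hcn4*. Of 10 sinus node genes, 6 were kept and 1 was called in YAP5SA against GFP, where 22% of all genes were called. This was *Tbx18*, a T-box factor of the sinus node head and the epicardium, which rose to 106 CPM in YAP5SA from 41.3 CPM in GFP and 35.7 CPM in YAP6SA (log2 fold change 1.30 ± 0.29, edgeR adjusted p = 0.0125; 1.50 ± 0.29 against YAP6SA, edgeR adjusted p = 0.00948). Its YAP5SA libraries were far apart, at 64.3 and 148 CPM. *Tbx3*, the T-box repressor of the sinus node, had means of 11.5, 11.2 and 11.5 CPM and a log2 fold change of -0.01. All 9 genes of the ventricular conduction list were kept. *Irx3*, a homeobox factor of the His-Purkinje system, was called lower in YAP5SA against GFP (-0.60 ± 0.18; edgeR adjusted p = 0.0388), with means of 52.0 and 35.8 CPM and libraries that overlapped between the groups. In YAP6SA its mean was 33.3 CPM (-0.66 ± 0.18 against GFP; unadjusted p = 0.00424, edgeR adjusted p = 0.497), and YAP5SA against YAP6SA was 0.06. *Hopx*, a homeodomain protein of the conduction system, was called lower in YAP5SA against YAP6SA (-0.81 ± 0.21; edgeR adjusted p = 0.0286), with means of 78.7 and 138 CPM. None of the 4 genes of the REST complex, a repressor that acts on fetal HCN genes in ventricle, passed the test in any comparison. The lowest adjusted p among them was 0.0727 by edgeR, for *Rcor3* in YAP5SA against GFP.

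The profile of each gene over the 6 libraries was also compared with those of 11973 protein-coding genes, as a description of likeness over libraries that share batches and groups. *Hcn2* was most like *Irx4*, a ventricular homeobox factor, with a Pearson r of log2 CPM of 0.998, followed by *Cog2* (0.998), a Golgi complex subunit, and *Ephx2* (0.997), an epoxide hydrolase. *Irx4* was at 372 CPM in GFP, 339 CPM in YAP6SA and 161 CPM in YAP5SA, and was the ventricular marker called lower (-1.20 ± 0.23 against GFP; edgeR adjusted p = 0.00654). Each r rests on only 6 libraries. An r over 0.9 was found for 1159 genes (9.68%) with *Hcn2*, 694 (5.80%) with *Scn4a*, 192 (1.60%) with *Scn7a* and 23 (0.192%) with *Hcn4*.

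*Scn4a* was most like *Mmaa* (0.997), *Fn3k* (0.997) and *Cd2ap* (0.994). *Scn7a* was most like *Fndc1* (0.996), *Adamts10* (0.988) and *Ube2w* (0.987), and *Hcn4* was most like *Arhgap26* (0.985), *Gmeb2* (0.977) and *Sil1* (0.974). The profile of *Scn7a* and its nearest genes alternated between the batches. Those of *Hcn2*, *Scn4a* and *Scn7a* and of their nearest genes were all lowest in YAP5SA replicate 2.

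**Figure D5:**
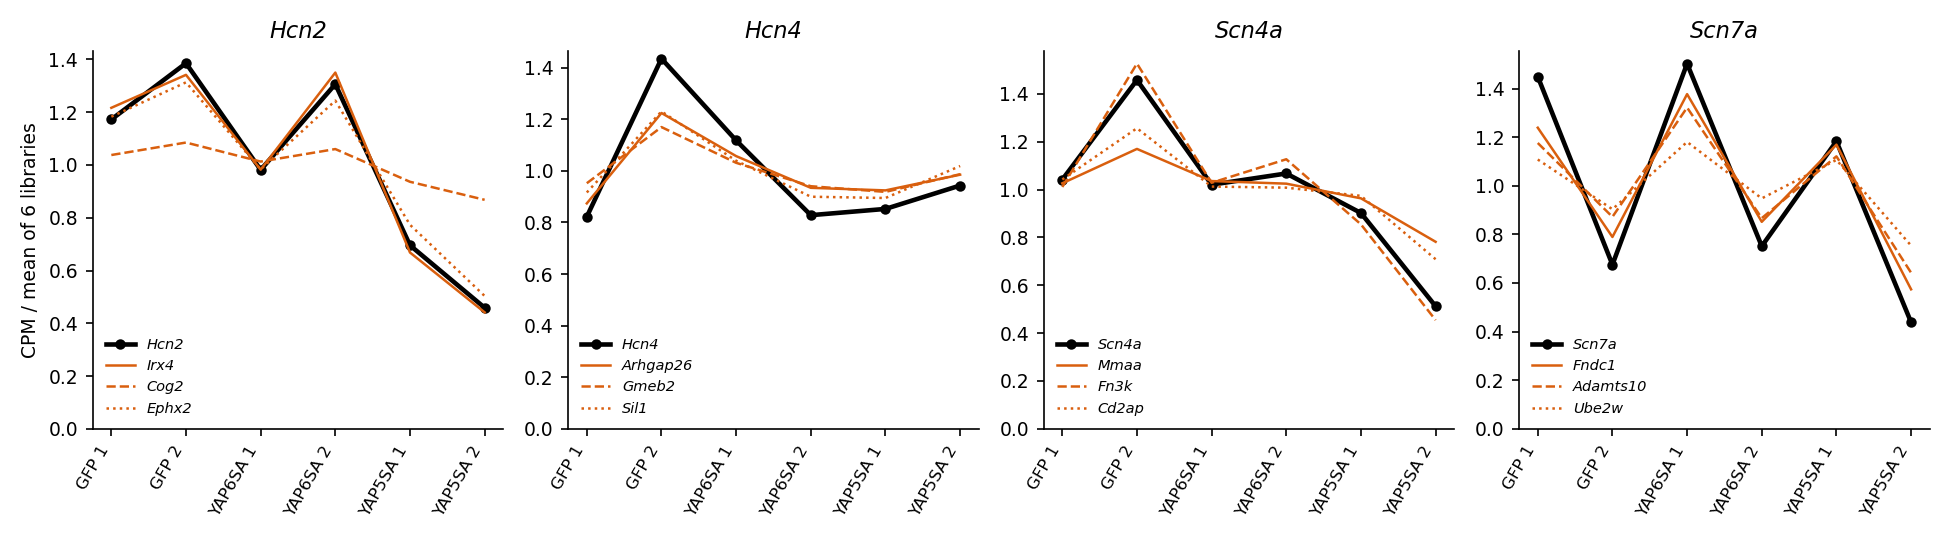
Relative levels of *Hcn2*, *Hcn4*, *Scn4a* and *Scn7a* (black) and of the 3 genes with the most similar profile (orange) in each of the 6 libraries, as scaled CPM divided by the gene's mean over the libraries (vertical axis, linear and from 0). *Hcn2* and *Irx4* had both YAP5SA libraries below the other 4, and *Scn7a* was higher in replicate 1 of every group.

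The remaining lists of other cell types were read in YAP5SA against GFP beside the 22% of all genes called. Of 10 fibroblast and 10 endothelial markers none was called by edgeR, where 4 fibroblast markers and 0 endothelial markers had an unadjusted p under 0.05. Of all 13323 genes tested, 2591 were higher and 2261 lower at that unadjusted edgeR p. The most abundant endothelial markers were *Egfl7* and *Tie1*. Of 9 macrophage markers kept 2 were called higher, and the summed level was 69.4 and 97.1 CPM in GFP against 101 and 146 CPM in YAP5SA, with *Csf1r* and *C1qa* the most abundant. Of 8 mural cell markers, 1 was called higher and 1 lower, and *Abcc9* and *Cspg4* were the most abundant. Of 9 neuron markers 1 was kept, *Dbh*, which rose (0.90 ± 0.26; edgeR adjusted p = 0.0329), and *Th* was at 0 in all libraries. The part of these cell types in the levels of the 5 channel genes was not tested.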

How the data were processed

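The authors isolated CM nuclei by PCM-1 pulldown, sequenced poly-A nuclear RNA from non-directional libraries, mapped reads with STAR to mm10 (Ensembl release 94 annotation) and deposited 1 table of gene counts for the 6 libraries. Per the table's own rows, which were left out of library sizes, 3.03 to 3.63% of reads were unmapped, 2.90 to 4.19% multimapping, 9.43 to 9.84% outside features and 5.79 to 6.31% ambiguous. Gene names were matched by Ensembl identifier to GENCODE M21 (54495 of 54532). Counts were tested with edgeR 4.0.16 (R 4.3.3; quasi-likelihood, TMM scaling, batch and group as terms, all 6 libraries, 2 residual degrees of freedom), after keeping genes with a median above 1 log2 CPM in any group, with Benjamini-Hochberg adjustment over 13323 genes and a threshold of 0.05. The study's methods name edgeR, this filter and a batch covariate. Libraries of the same replicate number share a labelled batch, which pairs them; the correlation of their deviations from the group means was 0.368 (GFP and YAP6SA), 0.0985 (GFP and YAP5SA) and 0.175 (YAP6SA and YAP5SA). CPM were scaled by TMM, and RPKM were CPM per kilobase of merged exons. Replicates of each group differed by more than sampling noise (25.3 to 39.6 chi-square units for each degree of freedom). Alternatives were RLE and upper-quartile scaling, no filter, at least 10 counts in every library, the likelihood ratio test, DESeq2 1.42.0, limma-voom (limma 3.58.1), no batch term, only the 4 libraries compared, and leaving out each library.

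The 5 genes and the gene lists were chosen with earlier results of these data known. Named beside the 5 genes were listed channel and conduction genes that passed the test in any comparison, the 2 most abundant genes of each other list, and the 3 protein-coding genes most like each of the 4 genes with 10 or more counts in at least 3 libraries. Other genes named were chosen after their values were seen, and some genes of the lists are not reported here. Promoters were the 250 bases before RefSeq starts. Counting intervals are exact and cover counting error only.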

Additional observations from a re-analysis of the deposited data

How the results depend on the processing

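*Hcn2* passed the test in all 9 alternative settings other than leaving out 1 library. Its log2 fold changes there were -1.18 to -1.13 for YAP5SA against GFP (edgeR, DESeq2 or limma adjusted p at most 0.0123). For YAP5SA against YAP6SA they were -1.01 to -0.96 (at most 0.0308). Without the replicate block (batch term), the adjusted p of *Hcn2* was 0.0123 and 0.0308 by edgeR, and that of *Scn4a* in YAP5SA against GFP was 0.0974. No call on the 4 genes tested changed in that setting. The count of channel and partner genes called was 2 in place of 3 for YAP5SA against GFP. For YAP5SA against YAP6SA it was 1 in place of 2. *Scn4a* in YAP5SA against GFP passed the test with no filter (-0.84) and with the likelihood ratio test (-0.84). The count of channel and partner genes called in YAP5SA against GFP, 3 in all, was 5 with no filter and 5 with the likelihood ratio test, and in YAP5SA against YAP6SA it was 4 and 5. Other scalings moved the median of all genes by at most 0.00803 on the log2 scale.

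Leaving out 1 library at a time, where a lone library of a group is assumed to vary like the others, gave these ranges of log2 fold change. For YAP6SA against GFP they were -0.65 to 0.20 for *Scn4a*, -0.53 to 0.72 for *Scn4b* (log2 count ratio), -0.029 to 0.24 for *Scn7a*, -0.48 to 0.11 for *Hcn2* and -0.64 to 0.31 for *Hcn4*, none of the tested values called, and each changed sign without at least 1 library. For YAP5SA against GFP they were -1.40 to -0.30 for *Scn4a*, -4.11 to -2.98 for *Scn4b*, -0.64 to -0.26 for *Scn7a*, -1.63 to -0.70 for *Hcn2* and -0.73 to 0.21 for *Hcn4*. For YAP5SA against YAP6SA they were -1.16 to -0.061 for *Scn4a*, -4.83 to -3.26 for *Scn4b*, -0.74 to -0.35 for *Scn7a*, -1.46 to -0.53 for *Hcn2* and -0.55 to 0.36 for *Hcn4*. The counts of genes called ranged from 2 to 5 in YAP5SA against GFP (5 without YAP5SA replicate 1) and from 0 to 7 in YAP5SA against YAP6SA (0 without YAP6SA replicate 2, 1 without YAP5SA replicate 2 and 7 without YAP5SA replicate 1). The cause was not tested. For *Scn4b*, which did not pass the filter, the alternatives other than no filter and leaving out a library gave no value, and leaving out YAP5SA replicate 1 left 0 counts. The counts of *Hcn4* and *Scn4b* were low, and each virus had 2 hearts.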
